A study of Rattus norvegicus with 40 samples.

Results

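The antioxidant and glutathione enzymes are a given list of 39 rat genes. They cover superoxide dismutases, catalase, glutathione peroxidases, peroxiredoxins, thioredoxins, glutathione synthesis and transfer, quinone reductases, the pentose phosphate pathway and the NRF2 regulators. The list was chosen with earlier results of these data known. A gene was a member by name alone and was read from a probe set annotated to that gene only, the brightest where there were several. By this rule 38 of the 39 members were measured, out of 10304 named genes on the arrays, and all 38 passed the filter on low values. The exception was Prdx1, whose probe set is annotated to several genes. The samples were total RNA of rat cerebral cortex on Affymetrix 1-colour arrays, 20 of them from cortex labelled with hypoxic preconditioning (brief low oxygen ahead of a later insult) and 20 from sham cortex in normal oxygen. The samples of each group are numbered 1 to 20, in 4 runs of 5 per group (1 to 5, 6 to 10, 11 to 15 and 16 to 20), and no label used here gives a meaning to the runs. The sources used here give neither strain, age, oxygen level and length of exposure nor whether each sample was a separate animal, so a p-value covers only the spread from sample to sample, which may be technical.

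Cells form superoxide and hydrogen peroxide when they use oxygen. Superoxide dismutases turn superoxide into peroxide, and catalase, glutathione peroxidases and peroxiredoxins remove peroxide. Glutathione and thioredoxin supply the electrons and are reduced again with NADPH, part of which comes from the pentose phosphate pathway. NRF2, encoded by Nfe2l2, switches on many of these genes through the antioxidant response element, and KEAP1 holds NRF2 down in unstressed cells. In the cortex astrocytes are known for a large share of glutathione synthesis.

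The antioxidant response element core was looked for because it is the sequence that ties these enzymes to NRF2. The letters TGACNNNGC, on both strands, were searched from 250 bases before to 50 bases after the first listed start site in RefSeq's promoter table for GRCr8. They occurred in 9 of the 36 member promoters found there, or 25%, against 12.2% of all 27457 promoters. The 9 were Gclm, Gstm5, Gstp1, Msrb2, Nfe2l2, Prdx1, Prdx4, Prdx5 and Sod2. The hypoxia response cores, ACGTG or GCGTG on both strands, occurred in 69.4% of member promoters and 42.9% of all. Taken singly, ACGTG occurred in 25% against 19.7%, and GCGTG in 52.8% against 31.1%. The base composition of member and other promoters was not compared. The matches that lie before the start site of Gclm, Gstm5, Gstp1 and Sod2 are printed from 5′ to 3′ with the core in capitals. They are given because these enzymes stand for glutathione synthesis, glutathione transfer and superoxide removal.
Gclm, chr2:213031947-213031987, minus strand: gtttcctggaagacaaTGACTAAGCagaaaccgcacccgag
Gstm5, chr2:198219640-198219680, plus strand: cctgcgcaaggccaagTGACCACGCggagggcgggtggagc
Gstm5, chr2:198219700-198219740, plus strand: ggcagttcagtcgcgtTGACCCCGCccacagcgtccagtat
Gstp1, chr1:210769742-210769782, minus strand: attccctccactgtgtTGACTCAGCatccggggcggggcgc
Sod2, chr1:50050179-50050219, plus strand: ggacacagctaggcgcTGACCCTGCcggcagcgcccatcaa
Gstp1 carries TGACTCAGC 53 to 61 bases before its start, and Gstm5 has a pair of matches, of which the farther one overlaps a hypoxia core. Such matches describe the letters only and are no evidence of binding.

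As a measure of RNA quality, the 3′ over 5′ signal ratio of the control genes lay between 1.38 and 1.90 for actin and between 0.892 and 1.06 for GAPDH. Preconditioned arrays 5 and 6 had the lowest array medians (log2 values of 5.59 and 5.53, where all others had at least 5.71). Of the 10 astrocyte and 10 neuron markers, 0 lay at the floor on every array of a group and run, in a tissue labelled as cortex. Of the 1520 member values, 1 lay at the floor of 16. Differences are in log2 units with the limma fit's standard error (SE), and a member is called when its p-value, adjusted over all 18625 probe sets by the method of Benjamini and Hochberg, is under 0.05.

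Over all 40 arrays no antioxidant or glutathione gene differed between preconditioned and sham cortex by the limma test. The call rate was 0 of 38 members, against 0.891% of all probe sets. At an unadjusted p under 0.05 there were 4 members, or 10.5%, against 14.9% of all probe sets. The member differences ran from -0.17 for Msrb2 to 0.14 for Nfe2l2, with a median of -0.02 for members and for all probe sets. All 38 intervals at 95% lay within 0.5 either way, and the farthest bound was that of Nqo2, at -0.32. In bulk tissue, fewer cells of a type and less RNA per cell cannot be told apart.

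Among the enzymes that handle superoxide and peroxide directly, catalase (Cat) had a difference of -0.01 ± 0.04 (SE, 95% interval -0.08 to 0.07). Its intensity had a lowest, median and highest value of 573.6, 654.2 and 752.5 in preconditioned arrays, against 587.7, 659.2 and 816 in sham arrays, so the ranges overlapped almost entirely. Sod1, the cytosolic superoxide dismutase, gave -0.01 ± 0.05, and Sod3, the secreted form, gave -0.02 ± 0.11. Sod2, the mitochondrial form, had 301.8, 409.1 and 499.9 in preconditioned arrays, against 375.7, 437.1 and 583.9 in sham arrays. Its difference of -0.15 ± 0.06 did not pass (adjusted p = 0.19). The glutathione peroxidases, which reduce peroxides with glutathione, lay between -0.08 for Gpx3 and 0.02 for Gpx4. The peroxiredoxins and sulfiredoxin, which restores oxidised peroxiredoxins, lay between -0.05 for Prdx4 and 0.06 for Prdx2.

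In the thioredoxin branch, Txn1 (cytosolic thioredoxin) gave 0.07 ± 0.05 and Txn2 (mitochondrial thioredoxin) 0.07 ± 0.09. Msrb2, a mitochondrial enzyme that repairs oxidised methionine, had intensities of 70.2, 95.7 and 116 as lowest, median and highest in preconditioned arrays, against 85.8, 107 and 132.7 in sham arrays. Its difference of -0.17 ± 0.06 had the smallest adjusted p among the members, 0.17. Of the genes for glutathione synthesis, Gclc, the catalytic subunit of the rate-limiting ligase, gave 0.11 ± 0.05 (adjusted p = 0.32), and Gclm, its modifier subunit, gave -0.12 ± 0.07 (adjusted p = 0.42). The other kept probe set of Gclc had the opposite sign, at -0.05 (adjusted p = 0.83 by limma). The 8 glutathione transferases lay between -0.10 for Mgst1 and 0.05 for Gstm1. Quinone reductases Nqo1 and Nqo2 gave -0.08 ± 0.07 and -0.04 ± 0.14. The pentose phosphate enzymes lay between -0.03 for Tkt and 0.04 for Taldo1. Nfe2l2 gave 0.14 ± 0.06 (adjusted p = 0.27), while Keap1 gave 0.01 ± 0.05.

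Within the number runs, mitochondrial thioredoxin was the single member called in a comparison of preconditioned and sham arrays. This was run 1 to 5, where 1 of 38 members was called, against 2.39% of all probe sets. The limma counts were 0 of 38 in run 6 to 10 (2.22% of all probe sets), 0 of 38 in run 11 to 15 (0.0698%) and 0 of 38 in run 16 to 20 (0%). At an unadjusted p under 0.05 run 1 to 5 had 4 members (10.5%, against 16.6% of all probe sets). The later runs had 5, 1 and 2 members (13.2%, 2.63% and 5.26%), against 16.8%, 9.85% and 5.11% of all probe sets. Every member's 95% interval lay within 1 either way in each run, and 30, 33, 33 and 36 of 38 lay within 0.5. The member medians were -0.002, -0.011, -0.002 and -0.024 from the earliest to the last numbers, against -0.031, -0.023, 0.004 and -0.004 for all probe sets.

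**Figure D1:**
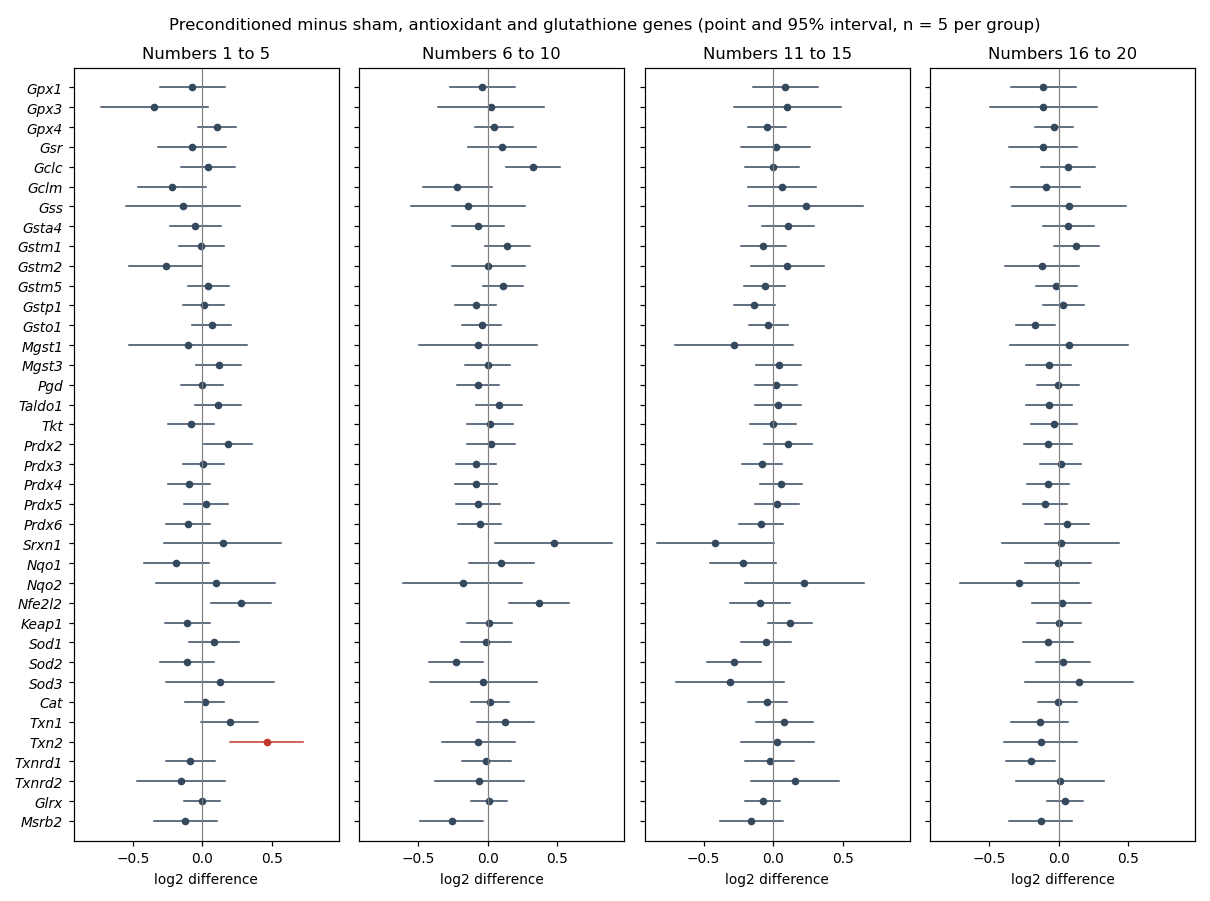
Preconditioned minus sham difference (log2, horizontal axis) of the 38 members, grouped by role, in 1 panel per number run, with the 95% interval as a line (n = 5 per group). Txn2 in run 1 to 5, at 0.46, is the called difference, and the other values lie between -0.42 and 0.47.

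Txn2 is the thioredoxin of mitochondria, where it passes electrons to peroxiredoxin 3. In run 1 to 5 its intensity was 223.9, 264.2, 260.0, 318.8 and 314.5 in preconditioned arrays 1 to 5, against 276.4, 296.3, 157.6, 166.1 and 145.8 in sham arrays 1 to 5. Sham arrays 3, 4 and 5 lay below every preconditioned array, and sham arrays 1 and 2 lay within the preconditioned range, so the groups overlapped. The difference was 0.46 ± 0.13 (SE, n = 5 each, 95% interval 0.20 to 0.72, adjusted p = 0.046 by limma), a 1.38-fold higher level after preconditioning. That SE rests on a spread shared by the 8 groups of the fit. The SD of the log2 values in this run was 0.484 in sham and 0.213 in preconditioned arrays. In the later runs the Txn2 difference was -0.07, 0.03 and -0.13. The call ended when preconditioned array 2, 3, 4 or 5 or sham array 3, 4 or 5 was left out, with adjusted p between 0.058 and 0.16. It ended as well without the filter (adjusted p = 0.09), without the mean trend (0.058), without preconditioned arrays 5 and 6 (0.13), and with the 10 arrays of the run alone (0.24).

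Nfe2l2, the gene of NRF2, had higher values after preconditioning in the earlier runs without passing the test. In run 1 to 5 it had 108.8, 113.7, 105.6, 116.6 and 101.2 in preconditioned arrays, against 95.93, 94.18, 79.06, 97.02 and 85.68 in sham arrays. All 5 preconditioned values lay above all sham values, and the difference was 0.28 ± 0.11 (SE, n = 5 each, adjusted p = 0.16 by limma). In run 6 to 10 it had 102.3, 149.5, 143.4, 137.4 and 117.5 in preconditioned arrays, against 97.75, 110.8, 98.18, 85.78 and 108.8 in sham arrays. Here 4 of 5 preconditioned arrays lay above all sham arrays and array 6 lay among them. The difference was 0.37 ± 0.11 (SE, 95% interval 0.15 to 0.58, adjusted p = 0.053 by limma). In the last pair of runs the groups gave -0.09 and 0.02. With quantile normalization the run 6 to 10 difference had an adjusted p of 0.019, with median centring 0.012, without preconditioned array 6 0.018, and with the arrays of the run alone 0.2.

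Gclc in run 6 to 10 had 150.4, 152.2, 146.2, 157.9 and 147.7 in preconditioned arrays, against 157.2, 106.5, 99.39, 127.6 and 118.6 in sham arrays. The preconditioned values were close together, and sham array 6 lay at the top of that range while sham arrays 7 to 10 lay below it. The difference was 0.33 ± 0.10 (SE, n = 5 each, adjusted p = 0.057 by limma). Without sham array 6 the adjusted p was 0.0079, with quantile normalization 0.037, with median centring 0.02, and with the arrays of the run alone 0.23. The other kept probe set of Gclc gave 0.21 (adjusted p = 0.54). Gclm, its partner subunit, gave -0.22 ± 0.12 in the same run (adjusted p = 0.37).

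**Figure D2:**
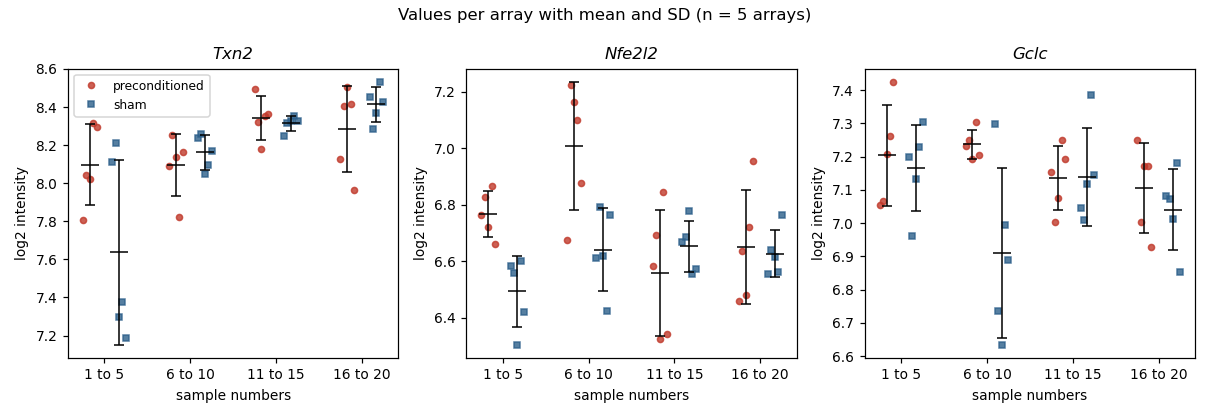
Log2 intensity of Txn2, Nfe2l2 and Gclc on each array by number run, with preconditioned points left of sham points and bars for the mean and SD (n = 5). Sham arrays 3 to 5 lie low for Txn2, and the preconditioned Nfe2l2 means are 109.2 and 130 in intensity in the earlier runs, against 90.38 and 100.2 in sham arrays.

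Sulfiredoxin (Srxn1) had differences of opposite sign in neighbouring runs, neither of which passed the test, with 0.47 ± 0.21 in run 6 to 10 (adjusted p = 0.23 by limma) and -0.42 ± 0.21 in run 11 to 15 (adjusted p = 0.51). Sod2 in run 11 to 15 had 377.1, 387.7, 433.7, 434.2 and 442.2 in preconditioned arrays, against 440.7, 548.7, 583.9, 433.6 and 524.6 in sham arrays. The groups overlapped between 433.6 and 442.2, and the difference was -0.28 ± 0.10 (SE, n = 5 each, adjusted p = 0.31 by limma). Gpx3, the secreted glutathione peroxidase, gave -0.35 ± 0.19 in run 1 to 5 (adjusted p = 0.36). Prdx2, a cytosolic peroxiredoxin, gave 0.18 ± 0.08 there (adjusted p = 0.25).

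The question whether the preconditioning difference changed from run to run was put with limma's moderated F-test of the interaction. It called 0 of 38 members, against 0.762% of all probe sets. At an unadjusted p under 0.05 there were 3 members (7.89%, against 12.9% of all probe sets), Txn2 (adjusted p = 0.24), Nfe2l2 (0.25) and Srxn1 (0.35). So the Txn2 call in run 1 to 5 is not shown to differ from the values of the other runs.

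Other genes of the same pathways, 73 in all and none of them members, were read in the same way, and 58 of them could be tested. This list was chosen with earlier results of these data known. Its shares, here and between runs, are therefore a description and no test of the pathways. Preconditioned and sham arrays differed in 0 of the 58 over all arrays (limma), 1 in run 1 to 5 (1.72%, against 2.39% of all probe sets), 4 in run 6 to 10 (6.9%, against 2.22%) and 0 in the later runs. In run 1 to 5 Hmox1, the inducible enzyme that breaks down haem, rose by 0.87 ± 0.23 on the log2 scale (adjusted p = 0.027). In run 6 to 10 Txnip, which binds and inhibits thioredoxin, rose by 0.59 ± 0.12 (adjusted p = 0.0036), and Slc3a2, the heavy chain shared by the cystine transporter, rose by 0.26 ± 0.07 (adjusted p = 0.046). Glrx3 fell by 0.32 (adjusted p = 0.023), and Gstk1, a glutathione transferase of mitochondria and peroxisomes, fell by 0.44 (adjusted p = 0.044). Of these 5 genes, the interaction test called Txnip (adjusted p = 0.014). In run 1 to 5, 4 of 9 endothelial and mural markers were higher after preconditioning, and 0 of 10 astrocyte, 0 of 10 neuron, 0 of 5 oligodendrocyte, 0 of 8 microglia and 0 of 4 red blood cell markers were called. In run 6 to 10, 2 of 10 astrocyte markers (Gfap and Aldoc) and 1 of 8 microglia markers (Mrc1) were higher after preconditioning, and of 9 endothelial and mural markers 2 were higher (Kdr and Vwf) and 1 lower (Tek). The median difference there was -0.102 over the 10 astrocyte markers, against the direction of Gfap and Aldoc. It was 0.036 over the 8 microglia and 0.018 over the 9 endothelial and mural markers. Over all arrays Gfap, Aldoc, Mrc1 and Vwf were called, all higher, and no other marker, while the median over the astrocyte markers was 0. The summed astrocyte markers in run 6 to 10 lay between 9652 and 14530 in preconditioned arrays, against 8462 to 11270 in sham arrays, and overlapped. In the same run the 5 red blood cell markers with a probe set summed to 5158 to 8161 in preconditioned arrays, against 3579 to 5025 in sham arrays, without overlap. Most of that sum is 1 gene, Hbb, with a mean intensity of 5323 over all arrays, against 154.2 for Alas2, the next brightest. The 4 that passed the filter had a median difference of -0.052, and none was called. The part of these cell types in the values of Txn2, Nfe2l2 and Gclc and of the related genes was not tested.

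More members were called between number runs than between treatments. The F-test over the 4 sham runs called 7 of 38 members (18.4% of them, against 13.7% of all probe sets), and that over the 4 preconditioned runs called 7 (18.4%, against 22.8%), so neither share stands far from that of all probe sets. The 7 among sham runs were Gpx4, Prdx6, Txn2, Gstm1, Gstm5, Mgst3 and Nqo2, a count that was 2 without sham array 1 or 20 and 4 without sham array 2, 4 or 18. Those among preconditioned runs were Prdx6, Gstm1, Nqo1, Nqo2, Taldo1, Nfe2l2 and Keap1. The regulator Nfe2l2 averaged 109.2 ± 6.16, 130 ± 19.6, 95.2 ± 14.9 and 101.2 ± 14.6 over the 4 preconditioned runs (SD, n = 5 each, adjusted p = 0.0084 by limma), with its peak in run 6 to 10. Keap1, its inhibitor, averaged 168.5 ± 20.6, 166.1 ± 15.5, 199.3 ± 11.0 and 187.6 ± 19.2 (adjusted p = 0.022 by limma), with its lower values in the earlier runs. The other kept probe set of Keap1 was not called among preconditioned runs (adjusted p = 0.053) and was called among sham runs (0.027), where the brighter one was not (0.27), so the probe sets disagree. From one sham run to the next, Txn2 was called in 6 to 10 against 1 to 5 (1 of 38, against 1.26% of all probe sets), with a difference of 0.53 ± 0.13 (adjusted p = 0.031 by limma). That call ended without any of sham arrays 3 to 7 or 10, with adjusted p between 0.055 and 0.11, or with the arrays of the 2 sham runs alone (0.14). The next steps called 0 of 38 each by limma, against 0.290% and 0.650% of all probe sets. With an unadjusted p under 0.05 these steps had 3 members each (7.89%), against 8.17% and 16.2% of all probe sets.

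In sham cortex 7 of 38 members were higher in run 16 to 20 than in run 1 to 5 and 0 were lower, against 14.8% of all probe sets in either direction, with 6.94% higher and 7.88% lower. They were Txn2, Nqo2, Mgst3, Prdx6, Gstm5, Gstm1 and Gpx4, from 5 of the 9 roles. The share of members called, 18.4%, lies near that of all probe sets, while the higher calls are 18.4% against 6.94%. The median of the 38 differences was 0.08, against -0.01 over all probe sets. In preconditioned cortex the same comparison called 7 of 38, 6 higher and 1 lower, against 17.6% of all probe sets, with 9.58% higher and 8.03% lower. These were Prdx6, Gstm1, Nqo2, Nqo1, Sod2 and Gstm5, and Taldo1, which was lower. The median was 0.07, against 0.01 over all probe sets. The counts and shares between runs, here and in the F-tests above, include Nqo2. It passed the filter through its later runs, so its call adds no support to them.

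Prdx6, Gstm1, Gstm5 and Nqo2 were called higher in both groups, which is 57.1% of each list of 7, against 43.6% of the sham and 36.7% of the preconditioned calls over all probe sets. The member share counts Nqo2, with the limit just given. The lists rest on different arrays but on an estimate of the spread that they share. Preconditioned and sham samples of the same number also deviated together (median correlation 0.159), so the lists are not independent. Whether the change between the first and the last run differed by group was tested only over all 4 runs together, by the interaction above, which called no member.

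Nqo2, a quinone reductase that takes dihydronicotinamide riboside in place of NADPH, is a dim probe set that passed the filter through its later runs. Its geometric mean over all arrays was 32.4, against the filter of 31.9, and its run 1 to 5 means were 24.2 in preconditioned and 22.3 in sham arrays, so its place among the calls is a description. Without the filter its change between runs 16 to 20 and 1 to 5 was still called in both groups (adjusted p = 0.023 in preconditioned and 0.0013 in sham arrays, by limma). In sham arrays it had 39.73, 43.55, 56.09, 49.52 and 48.49 in run 16 to 20, against 17.96, 18.75, 29.63, 22.71 and 22.28 in run 1 to 5. The runs did not overlap, and the difference was 1.11 ± 0.21 (SE, n = 5 each, 2.15-fold, adjusted p = 0.00054 by limma). In preconditioned arrays it had 46.54, 22.29, 49.98, 43.4 and 38.75 in run 16 to 20, against 30.72, 19.95, 32.67, 15.63 and 21.99 in run 1 to 5. Array 17 lay among the early values, and the difference was 0.73 ± 0.21 (adjusted p = 0.014 by limma), which ended without array 4 (adjusted p = 0.056). The size of the change depends on the scale at these low intensities. A pseudocount of 32 gave 0.36 in preconditioned and 0.55 in sham arrays. Nqo1, the classic NRF2 target, had 125.4, 110.1, 99.89, 111.2 and 98.9 in preconditioned run 16 to 20, against 95.89, 87.86, 75.54, 77.17 and 82.44 in run 1 to 5. The runs did not overlap, and the difference was 0.38 ± 0.12 (SE, n = 5 each, adjusted p = 0.019 by limma). It was 0.20 in sham arrays, and the call ended without preconditioned array 3 (adjusted p = 0.051) or 16 (0.056).

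**Figure D3:**
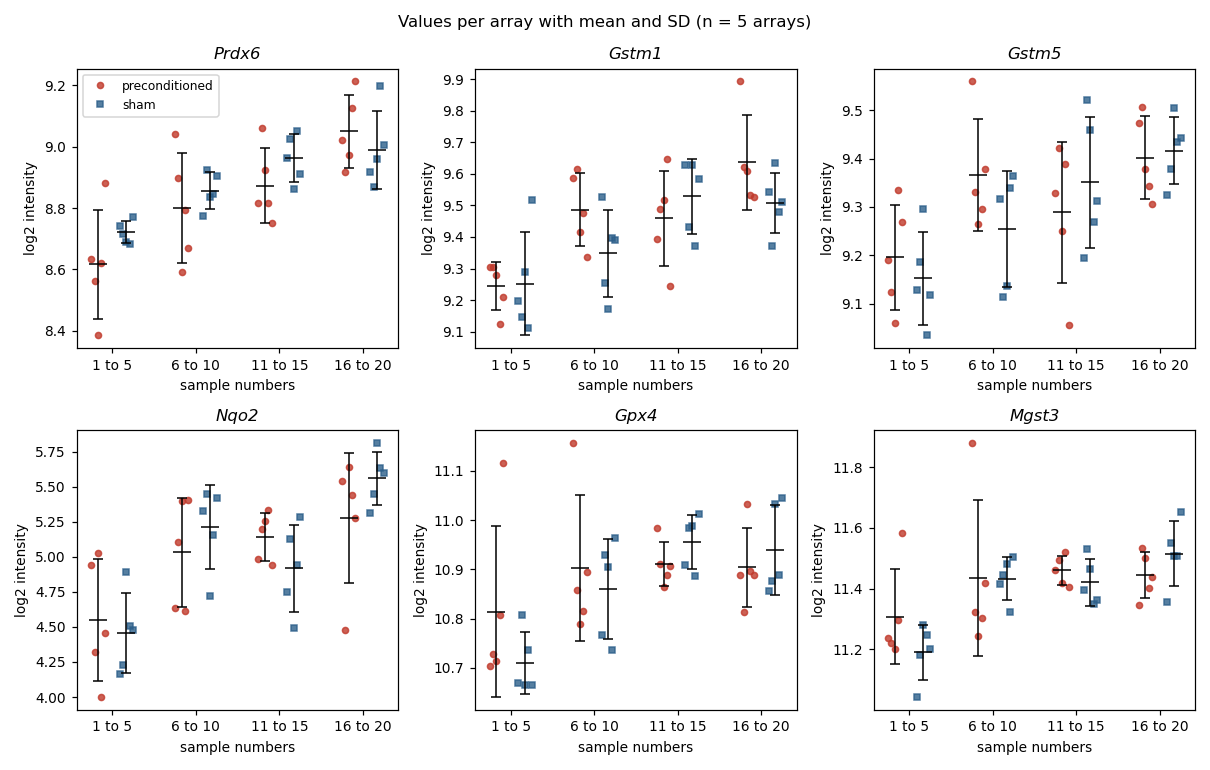
Log2 intensity of Prdx6, Gstm1, Gstm5, Nqo2, Gpx4 and Mgst3 on each array by number run, with preconditioned points left of sham points and bars for the mean and SD (n = 5). The sham values of Nqo2 correspond to intensities of 39.73 or more in run 16 to 20 and of 29.63 or less in run 1 to 5.

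Prdx6, a peroxiredoxin that uses glutathione and reduces phospholipid peroxides, had 520.4, 483.1, 502.3, 558.8 and 593.4 in preconditioned run 16 to 20, against 397.4, 378.4, 334.6, 393.8 and 471.2 in run 1 to 5. In sham arrays it had 483.2, 467.8, 498.0, 587.5 and 514.0 in run 16 to 20, against 428.2, 420.9, 413.3, 411.3 and 436.6 in run 1 to 5. Neither group's runs overlapped. The preconditioned difference was 0.43 ± 0.08 (SE, n = 5 each, adjusted p = 0.00014 by limma) and the sham difference was 0.27 ± 0.08 (adjusted p = 0.015), which ended without sham array 19 (0.068).

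Glutathione transferases join glutathione to reactive compounds. Gstm1 had 950.5, 786.7, 780.4, 740.4 and 738.2 in preconditioned run 16 to 20, against 632.6, 632.5, 621.4, 558.4 and 591.9 in run 1 to 5. In sham arrays it had 745.8, 662.1, 794.4, 714.2 and 730.1, against 587.4, 566.3, 625.0, 552.6 and 733.4, where array 5 lay in the later range. The preconditioned difference was 0.39 ± 0.08 (SE, n = 5 each, adjusted p = 0.00064 by limma) and the sham difference was 0.26 ± 0.08 (adjusted p = 0.026). The sham call ended without sham array 1, 2, 4 or 18, with adjusted p between 0.064 and 0.08. Gstm5 had 640.7, 665.4, 726.7, 691.5 and 696.2 in sham run 16 to 20, against 560.0, 582.3, 628.5, 524.5 and 555.2 in run 1 to 5. The sham runs did not overlap, with a difference of 0.26 ± 0.07 (adjusted p = 0.010 by limma). In preconditioned arrays the Gstm5 difference was 0.21 ± 0.07 (adjusted p = 0.039 by limma), which ended without array 1, 2, 3, 16, 17 or 18, with adjusted p between 0.055 and 0.11. It also ended with median centring (0.15), without the filter (0.059) and without the mean trend (0.053). Signal from closely related Gstm genes on the same probes cannot be told apart.

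Mgst3, a membrane-bound transferase, had 2622, 2998, 2915, 2911 and 3218 in sham run 16 to 20, against 2110, 2323, 2485, 2430 and 2355 in run 1 to 5. No late value lay among the early ones, and the difference was 0.33 ± 0.08 (SE, n = 5 each, adjusted p = 0.0051 by limma), against 0.14 ± 0.08 in preconditioned arrays (adjusted p = 0.25). Gpx4, which reduces lipid peroxides in membranes, had 1853, 1879, 2096, 1897 and 2111 in sham run 16 to 20, against 1629, 1792, 1625, 1706 and 1624 in run 1 to 5. The sham runs did not overlap, with a difference of 0.23 ± 0.07 (adjusted p = 0.017 by limma), against 0.09 ± 0.07 in preconditioned arrays (adjusted p = 0.39). Preconditioned array 5 stood apart in run 1 to 5, with 3066 for Mgst3 (nearest array 2517) and 2217 for Gpx4 (nearest array 1791). Its high values raise the early means, so both preconditioned differences are smaller for it. The sham Gpx4 call ended without sham array 18 (adjusted p = 0.051) or 20 (0.059) and with median centring (0.076). Txn2 in sham run 16 to 20 had 350.8, 311.4, 330.6, 370.3 and 344.7, all above the 5 values of sham run 1 to 5 given earlier. That difference was 0.78 ± 0.13 (adjusted p = 0.00016 by limma), against 0.19 in preconditioned arrays (adjusted p = 0.34). Every Txn2 call, between treatments and between sham runs, uses sham run 1 to 5 with its low arrays 3 to 5 (157.6, 166.1 and 145.8). These calls are therefore not separate results. The mean log2 value was 7.64 in sham run 1 to 5, against 8.10 in preconditioned run 1 to 5 and 8.16 in sham run 6 to 10.

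Sod2, in preconditioned arrays, averaged 449.7 ± 32.2 in run 16 to 20 and 376.6 ± 59.9 in run 1 to 5 (SD, n = 5 each). The difference was 0.27 ± 0.10 (adjusted p = 0.048 by limma), which ended without any of preconditioned arrays 1, 3, 4, 5, 17, 18, 19 or 20, with adjusted p between 0.051 and 0.15. It also ended with median centring (0.057), without the filter (0.091), without the mean trend (0.063) and without preconditioned arrays 5 and 6 (0.1). The sham Sod2 difference was 0.13 ± 0.10. Taldo1, an enzyme of the pentose phosphate pathway, was the lower one. It had 915.8, 755.4, 856.3, 746.5 and 845.4 in preconditioned run 16 to 20, against 1069, 984.5, 1033, 1023 and 1269 in run 1 to 5. The runs did not overlap, and Taldo1 fell by 0.38 ± 0.08 on the log2 scale (SE, adjusted p = 0.0010 by limma). In sham arrays it gave -0.21. Its pathway partners Pgd and Tkt gave -0.14 and -0.05 in preconditioned arrays and were not called.

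**Figure D4:**
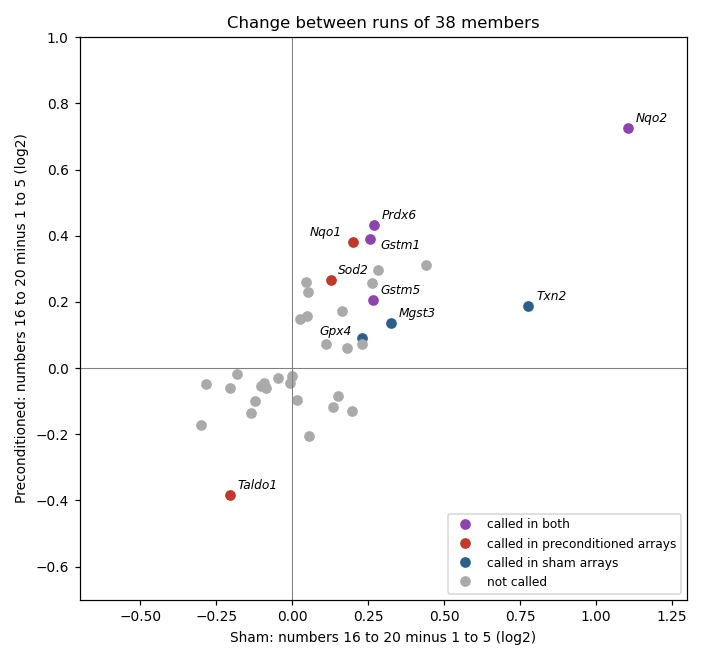
Difference between run 16 to 20 and run 1 to 5 (log2) of the 38 members, in sham arrays on the horizontal axis and in preconditioned arrays on the vertical axis. Nqo2, Prdx6, Gstm1 and Gstm5 are called in both groups, and Taldo1, at -0.38 in preconditioned arrays, is the called member that was lower.

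Without preconditioned arrays 5 and 6, 9 members were called in preconditioned arrays (23.7%, against 18% of all probe sets in that fit) and 11 in sham arrays (28.9%, against 17.9%), whose differences do not use those arrays but share the fit's spread. The members not called with all arrays took in catalase, at -0.02 ± 0.07 in preconditioned and -0.002 ± 0.07 in sham arrays, and Keap1, at 0.16 ± 0.08 and 0.05 ± 0.08. The other Keap1 probe set was called higher in run 16 to 20 than in run 1 to 5, by 0.39 in preconditioned arrays (adjusted p = 0.015 by limma) and by 0.47 in sham arrays (0.0056). With all arrays, 0 of 4 genes of glutathione synthesis and reduction were called in each group. Of all probe sets 17.6% were called in preconditioned and 14.8% in sham arrays, so 0 of so few genes says little. Of the related genes, 11 of 58 were called in preconditioned arrays (19.0%, against 17.6% of all probe sets), 8 higher and 3 lower, among them Oplah (0.97), which recycles oxoproline into glutamate, and Ugdh (-0.34). In sham arrays 6 of 58 were called (10.3%, against 14.8%), 3 higher and 3 lower, among them Gstm4 (0.51) and Ugdh (-0.47).

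Markers of other cell types moved with the runs. In preconditioned arrays the summed intensity of 10 astrocyte markers lay between 10020 and 12950 in run 16 to 20, against 8119 to 9694 in run 1 to 5, with 3 of 10 markers called higher. In sham arrays it lay between 9163 and 11340, against 7800 to 8496, with 5 of 10 called higher. For 9 oligodendrocyte markers, of which 5 passed the filter, the sum lay between 1622 and 3182 in preconditioned run 16 to 20, against 1001 to 1276 in run 1 to 5, and all 5 were called higher. In sham arrays it lay between 1445 and 2891, against 1157 to 1504, with 3 of 5 called higher. The late and early sums overlapped for oligodendrocyte markers in sham arrays and not in the other 3 cases. Mog, Mobp, Mal and Opalin, which mark mature oligodendrocytes, stayed below the filter, with mean intensities of 15.3, 10.9, 9.22 and 2.55 over all arrays. Neuron markers were called higher in 3 of 10 in preconditioned and 7 of 10 in sham arrays, and microglia markers in 4 of 8 and 5 of 8. Of all probe sets 9.58% and 6.94% were called higher. The late microglia sums lay above the early ones, at 678.2 to 1048 against 554.6 to 614.1 in preconditioned arrays. In sham arrays they lay at 633.2 to 965 against 482.7 to 631.1. Late and early neuron sums overlapped in both groups. Endothelial and mural markers gave 2 higher and 2 lower of 9 in preconditioned and 0 of 9 in sham arrays. Red blood cell markers gave 2 lower of 4 and 0 of 4, choroid plexus markers 0 of 4 in each group, and meningeal markers 1 lower of 8 in each. The actin 3′ over 5′ ratio moved with the runs as well. It lay between 1.45 and 1.61 in preconditioned run 16 to 20, against 1.69 to 1.82 in run 1 to 5, without overlap, and between 1.46 and 1.63 in sham run 16 to 20, against 1.51 to 1.90 in run 1 to 5. The GAPDH ratios overlapped in both groups. The part of these cell types and of RNA quality in the change of the members was not tested.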

How the data were processed

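The deposited values are linear probe set intensities, 1 per probe set and array, per the file headers. The sources used here do not name the software behind them. The mean intensity without the lowest and highest 2% was 150.04 to 150.06 on all 40 arrays, so each had been scaled. After 57 control probe sets of 31099 had been dropped, values under a floor of 16 were raised to it before the log2 step. Probe sets at or above the 40th percentile of mean log2 were kept (18625 of 31042). The limma package (3.58.1, R 4.3.3; lmFit, then eBayes with trend) compared the groups over all arrays, and compared groups and runs in 1 fit of 8 means. Tests were two-sided. The rule for naming took every member, with full values for members called between treatments and up to 8 called between sham runs 16 to 20 and 1 to 5. The full values of Nfe2l2, Gclc, Sod2, Nqo1 and Taldo1 were added after they had been seen. Members, related genes and marker lists were chosen with earlier results of these data known. Gene names came from the platform annotation, and all 38 gene IDs matched RefSeq (GRCr8). The fits were tested on simulated data. Alternatives were other normalizations, floors, pseudocounts and filters, a fit without the trend, a replicate block, fits of single runs, and leaving out arrays.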

Additional observations from a re-analysis of the deposited data

Results flagged for a closer look

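For the 12 members given in full, each of 8 groups of 5 arrays was looked at, which makes 96 groups, and 5 values stood apart from the others of their group by more than Dixon's limit. Chance gives such a value in about 1 in 20 groups. Gpx4 had 2217 on preconditioned array 5, against 1791 on the nearest array of its run, and 2283 on preconditioned array 6, against 1905. Mgst3 had 3066 on preconditioned array 5, against 2517, and 3766 on preconditioned array 6, against 2739. The same arrays 5 and 6 had the lowest array medians. Gstm1 had 950.5 on preconditioned array 16, against 786.7.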

How the results depend on the processing

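No member changed direction with a call under any alternative. In run 1 to 5 the single call, Txn2, was lost (0 members) without the filter, without the mean trend, without preconditioned arrays 5 and 6, and with the arrays of the run alone. In run 6 to 10, where 0 were called, there were 2 with quantile normalization, median centring or the filter at the 60th percentile, and 1 with a pseudocount of 32, without the trend or without preconditioned arrays 5 and 6. Among sham runs, 7 became 4 with median centring or no filter. For sham 6 to 10 against 1 to 5, 1 became 2 with quantile normalization, 4 without preconditioned arrays 5 and 6, and 0 with median centring, no filter, no trend or the 2 sham runs alone. For sham 16 to 20 against 1 to 5, 7 became 11 without preconditioned arrays 5 and 6. The cause was not tested.

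Leaving out each array in turn gave 0 members over all arrays, 0 to 1 in run 1 to 5, 0 to 1 in run 6 to 10, 0 in runs 11 to 15 and 16 to 20, and 0 to 1 for the interaction (Txn2, without sham array 2). It gave 2 to 8 among sham runs, the 2 without sham array 1 or 20, and 5 to 8 among preconditioned runs. Sham 6 to 10 against 1 to 5 gave 0 to 2, the next steps 0, sham 16 to 20 against 1 to 5 gave 5 to 9, and preconditioned 16 to 20 against 1 to 5 gave 5 to 7.

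By the labels, samples of the same number share only a number, and the main fits do not pair them. Their deviations correlated with a median of 0.159 (0.031 to 0.393), 15 of 20 pairs were over 0.1, and 19 of 20 correlated best with their own number. With the number as a block, 0 members were called over all arrays, 1 in run 1 to 5 and 2 in run 6 to 10 (Gclc and Nfe2l2), and the block changed the number of members called in no other comparison. Probe sets called over all arrays became 580 in place of 166, and 502 with the run as a covariate. They became 737 in place of 445 in run 1 to 5 and 777 in place of 413 in run 6 to 10. With the arrays of the run alone they were 161 and 96.

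Within runs the SE of a member's difference ran from 0.063 to 0.211 on the log2 scale with 5 arrays per group, so the precision differed between members. At the low intensity of Nqo2 the fold depends on the scale.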
